A study of Mus musculus with 8 samples.

Results

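The mouse genes numbered Zfp900 to Zfp999 are zinc finger genes, most of them KRAB zinc fingers of the clusters that expanded in rodents. They were chosen by symbol alone: every entry of the deposited gene table whose symbol is Zfp9 followed by 2 digits. This gave 32 genes of 19276 entries. The table holds 302 other genes named Zfp with a number, which served as a comparison set.

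The study sequenced RNA from whole testis of C57BL/6 mice aged 6 weeks and RNA recovered from testis lysate with antibodies against RNF17, a Tudor domain protein of germ cells. The 8 libraries form 4 groups of 2: testis of animals heterozygous for an Rnf17 mutation (no antibody), testis of homozygotes (no antibody), RNF17 immunoprecipitate (IP) from heterozygotes, and RNF17 IP from homozygotes. Every animal carried at least 1 mutant allele, so there is no wild-type group, and the labels do not describe the allele. Nothing in the labels ties a library to its own animal, so the p-values speak for the spread among these libraries alone, and that spread may be technical. Gene reads per library ran from 5661754 to 50575649, the highest being homozygous testis replicate 2.

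KRAB zinc finger proteins bind DNA through tandem C2H2 fingers, each of which contacts a few bases. Their KRAB domain recruits TRIM28 (KAP1), which brings the histone methyltransferase SETDB1 and HP1 proteins and so silences chromatin, often at transposons. New members arise by tandem duplication, so neighbouring genes and their promoters can be near copies of each other. In the testis, germ cells express many such genes, and silencing of transposons is needed for male meiosis.

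In the RefSeq order of protein-coding genes, the 32 genes lie on 11 chromosomes, 10 of them on chromosome 17. Of the 32, 20 had another zinc finger gene directly beside them and 26 had one within 3 genes. A count of C2H2 codon patterns in the longest open reading frame of each GENCODE transcript, available for 31 genes, gave a median of 11 fingers, from 0 in Zfp957 to 18 in Zfp945. Zfp942, Zfp943 and Zfp944, the most highly counted of the 32 genes by mean level over the 8 libraries, had 11 patterns each. Stretches of 50 bases shared with genes elsewhere covered a median of 1.96% of a transcript. They passed 10% in 10 genes, led by Zfp960 (82.7%), Zfp932 (55.5%) and Zfp931 (49.4%), so the counts of these 10 genes are uncertain if reads were divided among copies. Zfp934 (44.1%), Zfp937 (29.4%) and Zfp935 (20.9%), whose values are given below, are also among them, as are Zfp936, Zfp947 and Zfp959. Zfp944 is among them at 10.4%, while Zfp942 had 8.99% and Zfp943 had 3.57%. Zfp942 and Zfp944 had 224 such stretches in common, whereas neither shared any with Zfp943.

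The promoters of these 3 genes are shown because the genes moved together in the comparisons that follow. Whether the promoters had a part in that was not tested. Each window holds 250 bases before and 50 after the start of the gene, from RefSeq on build GRCm38.p6, and is written 5′ to 3′ on the strand of its gene. Capitals mark the E-box CACGTG and the GC box, which reads GGGCGG or, on the other strand, CCGCCC.
Zfp942 (chr17:21962415-21962714, - strand): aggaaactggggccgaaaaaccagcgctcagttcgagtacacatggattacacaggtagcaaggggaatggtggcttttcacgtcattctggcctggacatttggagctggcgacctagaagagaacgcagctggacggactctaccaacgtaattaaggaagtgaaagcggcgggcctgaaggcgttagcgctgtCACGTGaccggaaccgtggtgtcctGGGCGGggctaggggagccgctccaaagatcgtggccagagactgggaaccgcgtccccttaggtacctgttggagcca
Zfp943 (chr17:21962309-21962608, + strand): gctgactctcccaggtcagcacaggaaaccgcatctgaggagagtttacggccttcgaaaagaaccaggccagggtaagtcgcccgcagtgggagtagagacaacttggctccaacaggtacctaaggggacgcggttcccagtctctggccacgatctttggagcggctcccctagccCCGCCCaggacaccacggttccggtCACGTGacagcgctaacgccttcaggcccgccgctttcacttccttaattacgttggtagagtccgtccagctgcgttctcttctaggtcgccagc
Zfp944 (chr17:22361351-22361650, - strand): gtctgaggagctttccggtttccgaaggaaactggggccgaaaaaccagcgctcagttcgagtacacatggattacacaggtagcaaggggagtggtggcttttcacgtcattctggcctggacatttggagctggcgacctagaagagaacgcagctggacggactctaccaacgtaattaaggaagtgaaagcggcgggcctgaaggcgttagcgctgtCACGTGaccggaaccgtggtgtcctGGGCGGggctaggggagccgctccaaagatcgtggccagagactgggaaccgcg

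Zfp942 and Zfp943 are transcribed in opposite directions from starts 95 bases apart, so their windows overlap, and the 194 bases they share are the same DNA. Zfp944 and Zfp758, a zinc finger gene numbered outside the range, form a second such pair with starts 63 bases apart. The 2 pairs are near copies: the windows of Zfp942 and Zfp944 were identical at 274 of 275 aligned bases, and those of Zfp943 and Zfp758 at 292 of 292, apart from 1 gap position. Among the 406 pairs of promoters that the 29 genes with a RefSeq window can form, only the 3 pairs within Zfp942, Zfp943 and Zfp944 shared 100 or more 14-base words. The next pair, Zfp938 with Zfp959, shared 15.

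The E-box of this promoter sits in the longer palindrome GTCACGTGAC, which contains CACGTG and was searched on both strands. The palindrome was read from the Zfp942 window, so a match there was certain. It occurred in windows of 100 of 27025 RefSeq genes (0.37%) and of 3 of the 29 genes, Zfp942, Zfp943 and Zfp944. The windows of Zfp943 and Zfp944 overlap or copy that of Zfp942, so these 3 are not separate finds and show no enrichment. CACGTG alone was found in windows of 6 of the 29 genes, against 8.09% of RefSeq genes. These 3 are among the 6 and are not separate finds here either, so this count shows no enrichment. GGGCGG was found for 10 of 29, against 38.2% of RefSeq genes, so its share among these genes was close to that at large. The cAMP response element TGACGTCA occurred only for Zfp953 among the 29, against 2.03% of RefSeq genes. The MYB core TAACNG occurred for 8 of 29, against 25.9% of RefSeq genes.

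Levels are given as CPM, the read count of a gene relative to the size of its library on the usual edgeR scale, with all 8 libraries scaled together. Rnf17 itself checks the labels: its level was 518 and 532 CPM in heterozygous testis and 50.1 and 105 CPM in homozygous testis, in the order of replicates 1 and 2. In the IPs it was 1273 and 1173 CPM in heterozygotes and 209 and 380 CPM in homozygotes. Homozygous libraries were lower than heterozygous ones in both kinds of RNA. The heterozygous testis libraries were the least alike pair, with r = 0.877 between their log2 CPM across genes, against 0.927 to 0.979 in the other groups. The 7 summed markers of elongating spermatids, the sperm-forming cells after meiosis, stood at 3887 and 19450 CPM in heterozygous testis and at 204 and 199 CPM in homozygous testis. In the IPs the same sums were 5292 and 4615 CPM in heterozygotes and 183 and 209 CPM in homozygotes. The 7 summed markers of spermatocytes, the cells in meiosis, were 2005 and 1459 CPM in heterozygous testis, 904 and 2039 CPM in homozygous testis, 1488 and 1762 CPM in heterozygous IP and 2165 and 2399 CPM in homozygous IP.

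Zfp942, Zfp943 and Zfp944 shared a pattern in which the 2 genotypes were opposed: lower in homozygous than in heterozygous testis, and higher in homozygous than in heterozygous IP. The level of Zfp942 was 292 and 126 CPM in heterozygous testis, 40.9 and 56.5 CPM in homozygous testis, 63.4 and 91.3 CPM in heterozygous IP, and 260 and 418 CPM in homozygous IP. Zfp943 followed with 241 and 133 CPM in heterozygous testis, 26.2 and 46.5 CPM in homozygous testis, 37.0 and 53.3 CPM in heterozygous IP, and 146 and 162 CPM in homozygous IP. Zfp944 was lower throughout, at 93.5 and 61.5 CPM in heterozygous testis, 17.5 and 19.9 CPM in homozygous testis, 36.0 and 47.8 CPM in heterozygous IP, and 89.6 and 100 CPM in homozygous IP. For each of the 3 genes, both homozygous testis libraries lay below both heterozygous ones, and both homozygous IP libraries lay above every homozygous testis and heterozygous IP library.

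**Figure D1:**
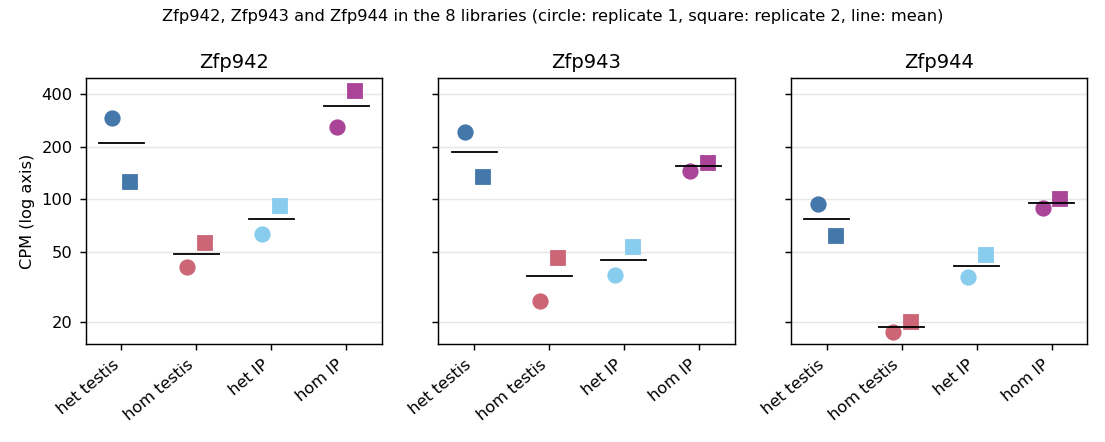
Levels of Zfp942, Zfp943 and Zfp944 in CPM (log axis) in the 4 groups; circles are replicate 1, squares replicate 2 and lines the group mean of 2 libraries. In each panel the homozygous IP sits above the homozygous testis and the heterozygous IP, and homozygous testis sits below heterozygous testis.

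Per kilobase of transcript, which allows genes to be compared, Zfp943 and Zfp942 led the 31 genes with a transcript in heterozygous testis, with group means of 68.3 and 64.0 CPM per kb. Their library values were 87.9 and 48.6 CPM per kb for Zfp943 and 89.4 and 38.6 CPM per kb for Zfp942, so the order of these 2 was not beyond their spread. Zfp935 followed with 48.9 and 24.9 CPM per kb, then Zfp944 with 33.6 and 22.1, whose ranges overlap each other. Zfp933 came next by mean, with 16.7 and 10.8 CPM per kb, below both libraries of Zfp944. In replicate 1 Zfp932 (19.2 CPM per kb), Zfp936 (17.5) and Zfp958 (17.5) lay above it, so its place was not beyond the spread. At the low end, Zfp957 had 0.124 and 0.428 CPM per kb. In homozygous IP the library values of Zfp942 were 79.6 and 128 CPM per kb, above the 53.3 and 59.2 CPM per kb of Zfp943 and the 32.2 and 36.0 CPM per kb of Zfp944, with no overlap between the 3 genes.

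Together the 32 genes made up 1256 and 684 CPM in heterozygous testis, 356 and 379 CPM in homozygous testis, 342 and 436 CPM in heterozygous IP, and 734 and 945 CPM in homozygous IP. Zfp942, Zfp943 and Zfp944 held 49.9% and 46.9% of that sum in testis of heterozygotes but 23.7% and 32.5% in testis of homozygotes. Of the IPs, those of heterozygotes had 39.9% and 44.2% and those of homozygotes 67.5% and 72.0%. The other 29 genes summed to 630 and 363 CPM in heterozygous testis and to 272 and 256 CPM in homozygous testis. Their sums in the IPs lay between 205 and 264 CPM in all 4 libraries, so the higher total of the homozygous IP came from the 3 genes.

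The first comparison asks how testis RNA differs between homozygotes and heterozygotes. Most of the 32 genes had a negative fold change, with the largest ones in Zfp943, Zfp942 and Zfp944, but none passed the threshold of edgeR's quasi-likelihood test. Of the 32 genes, all tested, 0 were called at an adjusted p under 0.05, as were 0 of all 14332 genes tested (0%). The smallest adjusted p of any gene was 0.133. At an unadjusted p under 0.05, 5 of the 32 were lower and 0 higher, against 8.16% of all genes lower. The Wald test of DESeq2 called 4 of the 32, all lower, against 4.44% of all genes called lower, and edgeR on all 8 libraries also called 4 lower, against 4.4%. In whole testis, fewer cells of a type and less RNA per cell cannot be told apart.

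Zfp943 had a log2 fold change of -2.42 (SE 0.60), which is 5.37-fold lower in homozygotes, with an edgeR adjusted p of 0.175 and a DESeq2 adjusted p of 0.00682. Zfp942 had a log2 fold change of -2.15 (SE 0.61), with adjusted p of 0.241 in edgeR and 0.0295 in DESeq2. Zfp944 had -2.10 (SE 0.54), with adjusted p of 0.195 in edgeR and 0.0207 in DESeq2. Without heterozygous testis replicate 1 edgeR called 1 of the 32 genes, Zfp943 (adjusted p = 0.0418; 8.23% of all genes), and without replicate 2 it called 4 (2.82% of all genes). With 1 heterozygous library left, its spread is assumed to be that of the homozygous ones. The authors' deposited table of the same contrast lists Zfp943 at a log2 fold change of -1.84 (adjusted p = 0.0132), Zfp944 at -1.65 (adjusted p = 0.0297) and Zfp942 at -1.63 (adjusted p = 0.0493). In the authors' deposited table these are the 3 of the 32 genes under 0.05, among 595 entries under it (3.09% of all entries). Zfp933, also listed in the authors' deposited table, missed it at an adjusted p of 0.0511. For these genes the authors' deposited fold changes are smaller than the ratios of the authors' deposited genotype means. The means of Zfp943 there were 2722 in heterozygotes and 511 in homozygotes. Its deposited -1.84 is therefore not on the scale of the edgeR value and does not stand for a smaller measured change.

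The 4 genes called by DESeq2 are these 3 and Zfp933. Its level was 70.6 and 45.6 CPM in heterozygous and 17.4 and 11.5 CPM in homozygous testis, with no overlap. Its log2 fold change was -2.05 (SE 0.58), with adjusted p of 0.242 in edgeR and 0.0381 in DESeq2. Zfp935 stood at 79.8 and 40.6 CPM in heterozygous and 29.2 and 21.9 CPM in homozygous testis, a log2 fold change of -1.27 (SE 0.58; edgeR adjusted p = 0.538). It too did not overlap between genotypes, but its change was far from the threshold. Zfp954 and Zfp939 were the genes whose libraries were all higher in homozygotes. Zfp954 was at 0.850 and 0.719 CPM in heterozygous and 1.82 and 1.65 CPM in homozygous testis, a level of 5 to 82 reads (edgeR adjusted p = 0.664). Zfp939 was at 9.35 and 3.99 CPM against 10.3 and 9.85 CPM (edgeR adjusted p = 0.829).

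Over the 32 genes the median log2 fold change was -0.83, with 26 below 0, beside a median of 0.04 over all genes tested and -0.15 over the other numbered Zfp genes. In 14 of the 32 both homozygous libraries lay below both heterozygous ones, a pattern found in 18.4% of all genes tested. In 2 both lay above, against 22.3% of all genes. Replicate 1 of heterozygous testis weighed on these values: 25 of the 32 genes (78.1%) were higher in it than in replicate 2, against 48.3% of all genes tested. The median ratio of replicate 1 to replicate 2 was 1.99 over the 32 genes and 0.958 over all genes. Without replicate 1 the median log2 fold change of the 32 was -0.46, and without replicate 2 it was -1.31. The spermatid markers given above moved with genotype in the same libraries. Within heterozygous testis they went the other way from most of the 32 genes, at 3887 CPM in replicate 1 and 19450 CPM in replicate 2. Summed round spermatid markers were lower in homozygotes too, at 1190 and 3941 CPM in heterozygous and 321 and 574 CPM in homozygous testis. Of the round spermatid list, Spaca1 and Acr overlapped between genotypes. The sums of markers of 5 other cell types were higher in both homozygous libraries than in both heterozygous ones. Sertoli markers were at 376 and 435 CPM in heterozygotes and 749 and 1049 CPM in homozygotes, Leydig markers at 196 and 268 against 444 and 701 CPM, and spermatogonia markers at 146 and 114 against 256 and 230 CPM. Myoid markers were at 97.1 and 79.5 against 222 and 127 CPM, and macrophage markers at 7.65 and 12.1 against 15.7 and 35.2 CPM. Blood markers were higher too, at 5.10 and 4.19 against 5.57 and 13.1 CPM. Of the Sertoli list Clu was at 128 and 333 against 376 and 881 CPM, but single markers did not all follow. Sox9 was at 48.8 and 20.3 against 46.3 and 20.2 CPM, and Wt1 and Gata4 also overlapped between genotypes. So did Lhcgr, Myh11, Cd68, Lyz2, C1qa and, of the spermatogonia list, all but Kit. The other markers of these lists with reads were higher in both homozygous libraries. The part of these markers in the result was not tested.

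**Figure D2:**
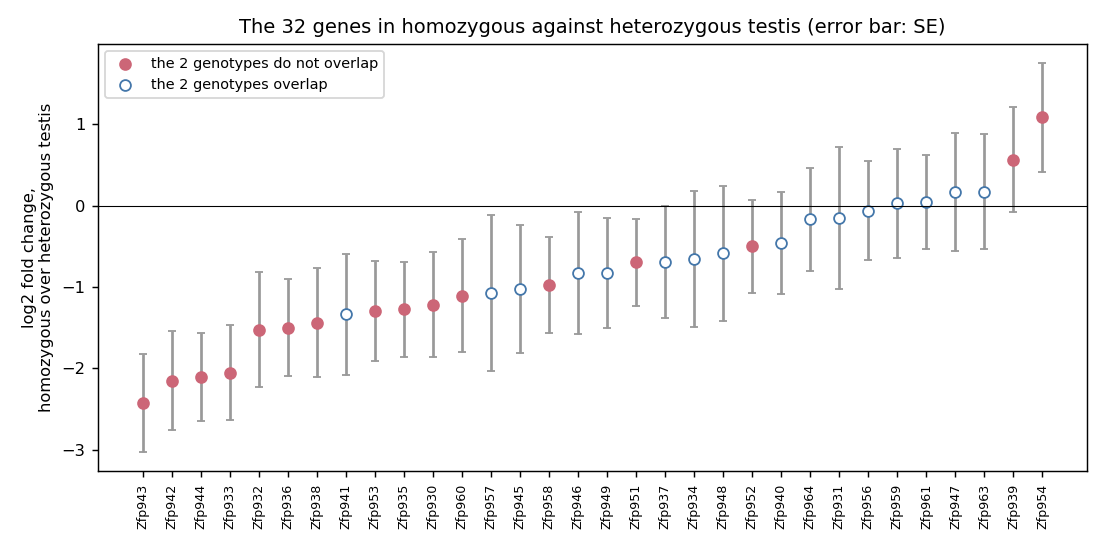
Log2 fold change of each of the 32 genes in homozygous over heterozygous testis (points) with its SE (bars); filled points are genes whose libraries do not overlap between genotypes. The 3 lowest genes, Zfp943, Zfp942 and Zfp944, have log2 fold changes from -2.42 to -2.10, and 26 of 32 genes lie below 0.

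The second comparison sets the RNF17 IP of heterozygotes against that of homozygotes, in which Rnf17 RNA was lower. The labels name no IP without the RNF17 antibodies. Of the 29 genes tested, 7 were called by edgeR: 2 were higher in the heterozygous IP and 5 were lower, that is, higher in the homozygous IP. The share called (24.1%) was below that of all genes tested (30.1%, made up of 17.7% higher and 12.4% lower). The called genes with the smallest adjusted p were again Zfp942, Zfp943 and Zfp944, all lower. Zfp931, Zfp954 and Zfp957 had too few reads to be tested.

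Zfp942 had a log2 ratio of heterozygous over homozygous IP of -2.09 (SE 0.27), that is, 4.25-fold lower in heterozygotes (edgeR adjusted p = 1.78e-04). Zfp943 was 3.32-fold lower, at -1.73 (SE 0.23; edgeR adjusted p = 2.13e-04), and Zfp944 was 2.20-fold lower, at -1.14 (SE 0.22; edgeR adjusted p = 0.00283). All 3 were also called by DESeq2, which called 4 of the genes in all, against 23.7% of all genes, and by edgeR whichever IP library was left out. When edgeR was fitted on all 8 libraries, Zfp942 alone of the 32 genes passed (0.31% of all genes were called lower), at an adjusted p of 0.0490, while Zfp943 had 0.0589 and Zfp944 had 0.109.

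The other called genes rested on fewer reads or on single libraries. Zfp951 was at 10.8 and 12.5 CPM in heterozygous and 17.6 and 28.2 CPM in homozygous IP, a log2 ratio of -0.94 (SE 0.30; edgeR adjusted p = 0.0344). Zfp937 had 2 and 6 reads in heterozygous and 9 and 22 reads in homozygous IP, a log2 ratio of -2.33 (SE 0.76; edgeR adjusted p = 0.0383). Both genes were lower in each heterozygous library, and Zfp937 rests on few reads in total. The counts of Zfp937 are also uncertain in the way given above for shared stretches. Zfp951 lost its call without heterozygous IP replicate 1 (edgeR adjusted p = 0.216) or 2 (0.0564) or homozygous IP replicate 2 (0.197), and Zfp937 without heterozygous IP replicate 1 (0.460). DESeq2 called neither, with adjusted p of 0.0528 for Zfp951 and 0.136 for Zfp937.

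Zfp941 and Zfp933 were higher in the IP of heterozygotes. Zfp941 was at 10.0 and 14.1 CPM in heterozygous and 4.25 and 5.81 CPM in homozygous IP, a log2 ratio of 1.29 (SE 0.36; edgeR adjusted p = 0.0184), and DESeq2 called it as well. Zfp933 was at 31.8 and 36.6 CPM against 16.3 and 23.4 CPM, a log2 ratio of 0.83 (SE 0.26; edgeR adjusted p = 0.0318). Neither gene overlapped between the genotypes. Zfp941 lost its call without heterozygous IP replicate 2 (edgeR adjusted p = 0.186), and Zfp933 without heterozygous IP replicate 1 (0.0636) or 2 (0.178) or homozygous IP replicate 1 (0.109), and DESeq2 did not call Zfp933 (adjusted p = 0.0668). Zfp953, at 4.91 and 5.63 CPM against 2.96 and 1.77 CPM, had a log2 ratio of 1.20 (SE 0.46) that missed the threshold (edgeR adjusted p = 0.0676).

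The median log2 ratio of the 29 tested genes was -0.55, with 24 below 0, beside 0.03 over all genes tested and -0.04 over the other numbered Zfp genes. Both heterozygous IP libraries lay below both homozygous ones in 18 of the 29 genes, against 34.3% of all genes tested, and above them in 4, against 33.8%; Zfp957, which had 14 and 3 reads in heterozygous IP and 0 in either homozygous IP, was not tested and is not among these 4. The sum of elongating spermatid markers was 5292 and 4615 CPM in heterozygous and 183 and 209 CPM in homozygous IP, and all 7 of these markers were called higher in heterozygotes by edgeR. Summed round spermatid markers were at 1586 and 1522 CPM in heterozygous and 545 and 514 CPM in homozygous IP. The part of either set of markers in these values was not tested.

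**Figure D3:**
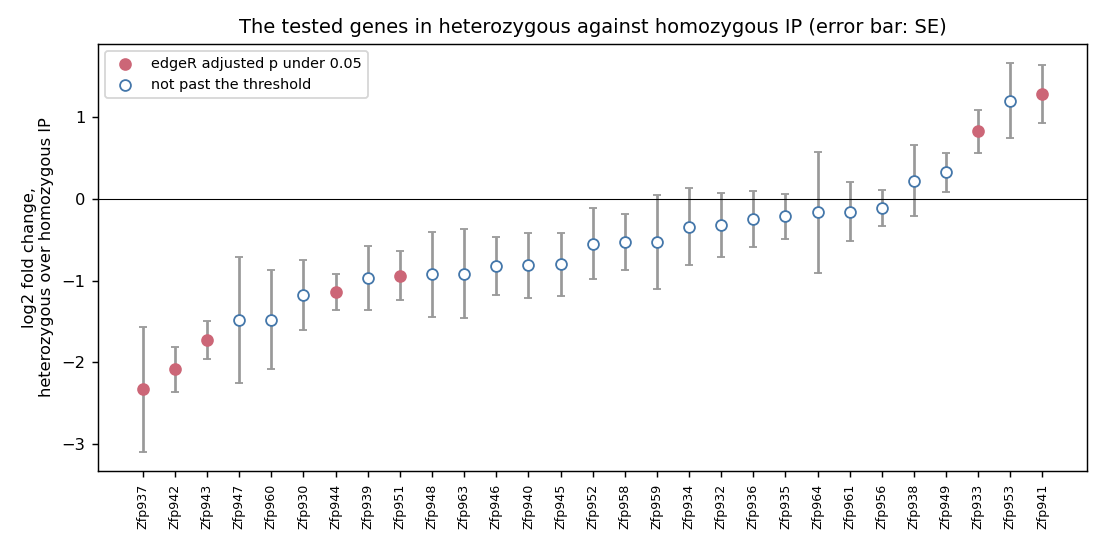
Log2 ratio of heterozygous over homozygous IP for the 29 tested genes (points) with its SE (bars); filled points passed the edgeR threshold. Of the 7 filled points, 5 lie below 0, and 24 of the 29 genes lie below 0.

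Each IP was then compared with testis of the same genotype, whose libraries served as input. In heterozygotes nearly all of the genes lay below 0. EdgeR called 0 of the 28 tested, as it called 0 of all 13562 genes (0%), with 13 of the 28 lower and 0 higher at an unadjusted p under 0.05, against 7.98% of all genes lower. DESeq2 called 7 of the 25 genes to which it gave an adjusted p, all lower, against 2.77% of all genes called lower. The median log2 fold change was -1.34, with 27 of 28 below 0, beside -0.04 over all genes and -0.52 over the other numbered Zfp genes. Both IP libraries lay below both testis libraries in 20 of the 28, against 24.5% of all genes tested, and above them in 1, against 28.7%.

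Zfp945, the gene with the most finger patterns, was at 58.7 and 11.97 CPM in heterozygous testis and 4.06 and 4.38 CPM in the IP, a log2 fold change of -3.07 (SE 0.87; edgeR adjusted p = 0.225). Zfp948 was at 20.9 and 4.45 CPM in testis and 1.32 and 1.88 CPM in the IP, a log2 fold change of -2.98 (SE 0.91; edgeR adjusted p = 0.230). Zfp934 was at 25.7 and 5.36 CPM in testis and 2.27 and 2.50 CPM in the IP, a log2 fold change of -2.69 (SE 0.87; edgeR adjusted p = 0.243). The counts of Zfp934 are uncertain in the way given above for shared stretches. In all 3 the IP libraries were close together and below both testis libraries, while testis replicate 1 was several times replicate 2. DESeq2 called these 3, with adjusted p of 0.00391, 0.0140 and 0.0220. Without testis replicate 1 the log2 fold changes were -1.53 for Zfp945, -1.53 for Zfp948 and -1.20 for Zfp934 (edgeR adjusted p of 5.52e-04, 0.0144 and 0.0284), and without replicate 2 they were -3.82, -3.76 and -3.45. Zfp956 was the exception in direction, at 13.1 and 22.5 CPM in testis and 32.8 and 31.1 CPM in the IP, a log2 fold change of 0.87 (SE 0.44; edgeR adjusted p = 0.341).

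In the same comparison Zfp942 had a log2 fold change of -1.43 (SE 0.54; edgeR adjusted p = 0.266), Zfp943 of -2.05 (SE 0.48; 0.211) and Zfp944 of -0.88 (SE 0.43; 0.330). Each was lower in both IP libraries than in either testis library. Among the 3, DESeq2 called Zfp943 (adjusted p = 0.0124). Without heterozygous testis replicate 1 edgeR called 15 of the tested genes, all lower, against 40.8% of all genes, and the median log2 fold change was -0.74. Without replicate 2 it called 22, of which 21 were lower, against 52.4% of all genes, with a median of -1.79. Both fits assume that the remaining testis library varies like the IP libraries.

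In homozygotes Zfp942, Zfp943 and Zfp944 were higher in the IP than in testis, and they were the called genes among the 30 tested. EdgeR called 3 of 30 (10.0%), all higher, against 3.28% of all 13334 genes called, 1.84% higher and 1.45% lower. Zfp942 was 7.42-fold higher, a log2 fold change of 2.89 (SE 0.43; edgeR adjusted p = 0.0101). Zfp944 was 5.38-fold higher, at 2.43 (SE 0.37; edgeR adjusted p = 0.0111), and Zfp943 was 4.53-fold higher, at 2.18 (SE 0.40; edgeR adjusted p = 0.0182). The ratio of IP to testis for libraries of the same number, which gives the size per library, was 6.36 and 7.40 for Zfp942, 5.58 and 3.49 for Zfp943 and 5.12 and 5.03 for Zfp944. DESeq2 called the same 3, against 5.45% of all genes called higher.

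The calls depended on 1 library at this threshold. Without homozygous IP replicate 2 none of the 32 genes passed in edgeR (0.633% of all genes did), with adjusted p of 0.0532 for Zfp942, 0.124 for Zfp943 and 0.0536 for Zfp944, while their log2 fold changes were 2.51, 2.10 and 2.35. Without homozygous IP replicate 1 Zfp943 had an adjusted p of 0.0536. Without homozygous testis replicate 2, the deepest library, 8 genes were called, 4 in each direction, against 32.5% of all genes. On all 8 libraries 1 gene was called, Zfp944 (0.353% of all genes were called higher), with adjusted p of 0.0641 for Zfp942 and 0.106 for Zfp943. Summed elongating spermatid markers were at 183 to 209 CPM in these 4 libraries, but single markers went opposite ways: Odf1 was at 45.5 and 69.4 CPM in testis and 106 and 127 CPM in the IP, whereas Akap4 was at 69.1 and 74.1 against 30.7 and 43.2 CPM. Round spermatid markers summed to 321 and 574 CPM in testis and 545 and 514 CPM in the IP. Summed spermatocyte markers were at 904 and 2039 CPM in testis and 2165 and 2399 CPM in the IP. Without Sycp1, a synaptonemal complex gene at 232 and 353 CPM in testis and 983 and 1292 CPM in the IP, that sum was 672 and 1686 against 1182 and 1106 CPM, so the groups overlapped. The part of these markers in the result was not tested.

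No other gene of the 30 tested passed the threshold. The median log2 fold change of the 30 was -0.03, with 17 below 0, beside -0.01 over all genes and -0.14 over the other numbered Zfp genes. Both IP libraries were higher than both testis libraries in 6 of the 30 genes, against 24.8% of all genes tested, and lower in 10, against 31.5%. Besides the 3 called genes, the 6 were Zfp956, Zfp937 and Zfp940. Zfp956 was at 13.3 and 23.0 CPM in testis and 36.2 and 34.8 CPM in the IP, a log2 fold change of 1.06 (SE 0.41; edgeR adjusted p = 0.155). Zfp937 had a log2 fold change of 1.32 (SE 0.68; edgeR adjusted p = 0.276) and Zfp940 one of 0.40 (SE 0.52; edgeR adjusted p = 0.685). Zfp934 had the largest fall among genes with no overlap, at 12.95 and 6.89 CPM in testis and 3.14 and 3.07 CPM in the IP, a log2 fold change of -1.60 (SE 0.58; edgeR adjusted p = 0.136). Zfp948 was at 11.1 and 5.91 CPM in testis and 2.59 and 3.55 CPM in the IP (-1.39, SE 0.60; edgeR adjusted p = 0.195). Zfp945 was at 20.5 and 14.7 CPM in testis and 9.05 and 6.13 CPM in the IP (-1.14, SE 0.49; edgeR adjusted p = 0.191). These 3 genes, with the lowest values in heterozygotes, were thus below 0 in both genotypes, and none passed edgeR in either.

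**Figure D4:**
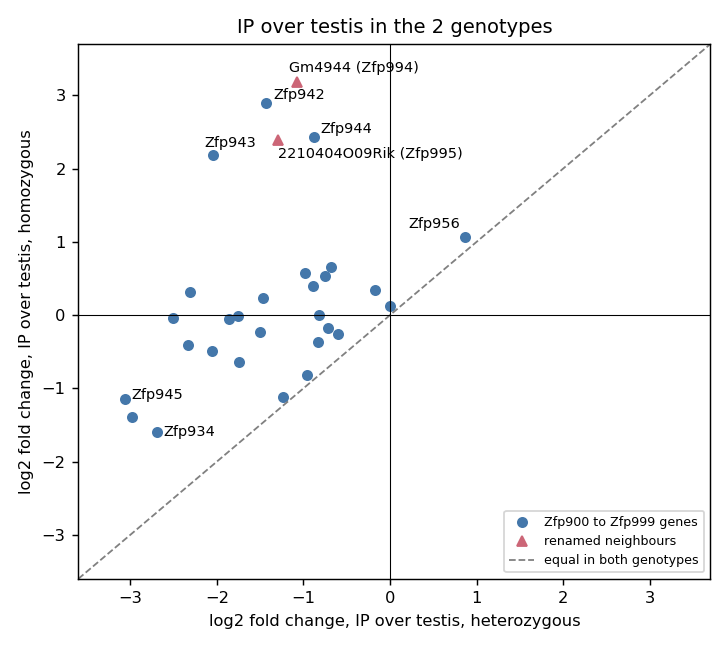
Log2 fold change of IP over testis in heterozygotes (x axis) and homozygotes (y axis) for genes tested in both, with the 2 renamed chromosome 17 neighbours as triangles and a dashed line of equal change. Zfp942, Zfp943, Zfp944 and the 2 neighbours lie at 2.18 to 3.18 in homozygotes and below 0 in heterozygotes.

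The last comparison tests the difference between the genotypes in the ratio of IP to testis, which uses all 8 libraries and therefore shares every one of them with the comparisons above. EdgeR called 0 of the 31 genes tested and 0 of all 14180 genes (0%), with 11 of the 31 at an unadjusted p under 0.05, all lower in heterozygotes, against 6.08% of all genes lower. The log2 difference, heterozygous minus homozygous, was -4.32 (SE 0.68) for Zfp942, -4.23 (SE 0.61) for Zfp943 and -3.32 (SE 0.51) for Zfp944. Their edgeR adjusted p was 0.214 each, which was also the smallest of any gene. DESeq2 gave an adjusted p to 4 of the 32 genes and to only 4887 genes in all. It called 3 of the 4 lower, with adjusted p of 1.92e-06 for Zfp942, 3.35e-07 for Zfp943 and 1.06e-05 for Zfp944. Of the 4887 genes it called 217 lower (4.44%). Without heterozygous testis replicate 1 edgeR called these 3 (1.75% of all genes), and without replicate 2 it called Zfp942 and Zfp943 (0.0204% of all genes). The median over the 31 genes was -1.34, with 30 below 0, beside 0.02 over all genes and -0.32 over the other numbered Zfp genes.

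The 3 genes lie in a run of 13 protein-coding genes on chromosome 17 that holds 6 of the 32 genes, in the order Zfp995, Zfp942, Zfp943, Zfp947, Zfp994, Gm7072, Zfp944, Zfp758, Zfp946, Vmn2r111, Vmn2r112, Gm9805 and Zfp945. Zfp995 and Zfp994 appear in the deposited table under the older names 2210404O09Rik and Gm4944, so the symbol rule did not take them. Apart from Zfp943, Zfp944 and Zfp758, no gene had a RefSeq window sharing over 5 of the 14-base words with that of Zfp942. This includes Zfp994 and Zfp995. Gm4944 was at 24.2 and 11.9 CPM in heterozygous testis, 8.10 and 10.3 CPM in homozygous testis, 7.84 and 9.22 CPM in heterozygous IP, and 71.7 and 86.2 CPM in homozygous IP. In homozygotes it was 9.08-fold higher in the IP than in testis, at a log2 fold change of 3.18 (SE 0.40; edgeR adjusted p = 0.00377). 2210404O09Rik was at 23.0 and 7.91 CPM in heterozygous testis, 4.96 and 5.81 CPM in homozygous testis, 3.87 and 8.75 CPM in heterozygous IP, and 28.5 and 24.8 CPM in homozygous IP. Its homozygous IP was 5.24-fold higher than testis, at 2.39 (SE 0.45; edgeR adjusted p = 0.0199). Both genes were thus high in the homozygous IP, and between the IPs both passed as lower in heterozygotes, at -3.17 (SE 0.25; edgeR adjusted p = 4.44e-06) and -2.07 (SE 0.37; edgeR adjusted p = 0.00158).

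Other genes of the run did not pass. Zfp758, whose promoter nearly matches that of Zfp943, was at 282 and 75.6 CPM in heterozygous testis, 30.4 and 26.8 CPM in homozygous testis, 63.9 and 68.8 CPM in heterozygous IP, and 51.2 and 55.0 CPM in homozygous IP. Its level in testis differed by genotype without overlap (log2 fold change -2.68, SE 0.73; edgeR adjusted p = 0.220), and DESeq2 called it lower in homozygotes (adjusted p = 0.00729). Its homozygous IP had a log2 fold change over testis of 0.97 (SE 0.37; edgeR adjusted p = 0.148), and the log2 ratio between the IPs was 0.37 (SE 0.20; edgeR adjusted p = 0.195), unlike in sign to that of Zfp943. Zfp946 stood at 11.9 and 7.05 CPM in homozygous testis and 8.87 and 8.87 CPM in homozygous IP, a log2 fold change of -0.02 (SE 0.51; edgeR adjusted p = 0.986). Zfp947 had 7 to 53 reads in the homozygous libraries and a log2 fold change of 0.66 (SE 0.77; edgeR adjusted p = 0.641). Transcripts in the run share sequence, with 241 stretches of 50 bases common to Zfp947 and Zfp995 and 64 to Zfp943 and Zfp758, so reads can be split between these genes. Zfp994 had 124 in common with Zfp947 and 39 with Zfp995, and none with Zfp942, while Zfp995 had 22 in common with Zfp944 and 20 with Zfp942. Shared stretches covered 18.2% of Zfp994 and 19.7% of Zfp995, past the 10% given above, so the counts of Gm4944 and 2210404O09Rik are uncertain in the same way.

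**Figure D5:**
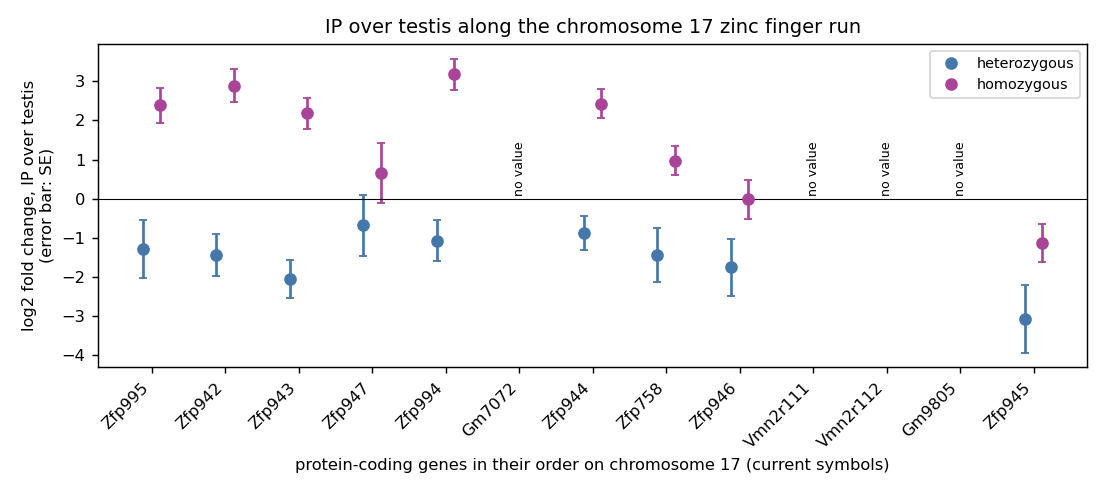
Log2 fold change of IP over testis (points, with SE as bars) in heterozygotes and homozygotes for the chromosome 17 run in gene order; "no value" marks genes that were not in the table or not tested. Zfp995, Zfp942, Zfp943, Zfp994 and Zfp944 lie above 2 in homozygotes, whereas Zfp946 is near 0 and Zfp945 is below 0.

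The genes through which KRAB zinc fingers act were followed as a list of 32 corepressor genes, all tested. EdgeR called none of them in testis, with a smallest adjusted p of 0.524. In that comparison 0 were at an unadjusted p under 0.05, against 1453 of all 14332 genes, and DESeq2 called 0, against 4.58%. Between the IPs edgeR called 5, with 1 higher and 4 lower in heterozygotes (15.6%, against 30.1% of all genes). Fitted on all 8 libraries, it called 0 of them between the IPs (3.43% of all genes), with a smallest adjusted p of 0.124. In that fit 3 were at an unadjusted p under 0.05, against 2675 of all 14180 genes. Of each IP over its testis edgeR called none (0% of all genes in heterozygotes and 3.28% in homozygotes). In heterozygotes 3 were at an unadjusted p under 0.05, against 2460 of all 13562 genes, and DESeq2 called 0, against 4.7%. In homozygotes 1 was, against 3021 of all 13334 genes, and DESeq2 called 1, against 10.6%. Cbx5, an HP1 protein that binds methylated histone H3, was at 241 and 223 CPM in heterozygous and 105 and 110 CPM in homozygous IP (log2 ratio 1.15, SE 0.19; edgeR adjusted p = 9.19e-04). Atf7ip2, a relative of the SETDB1 partner ATF7IP, was at 52.1 and 50.2 against 86.1 and 128 CPM (-1.02, SE 0.23; edgeR adjusted p = 0.00617). Atrx, a chromatin remodeller, was at 50.2 and 53.6 against 86.3 and 104 CPM (-0.83, SE 0.21; edgeR adjusted p = 0.0105). Trim28 and Setdb1 were not called in any comparison. Trim28 was at 32.7 and 75.0 CPM in heterozygous testis and 42.4 and 236 CPM in homozygous testis, so the genotypes overlapped. Setdb1 was at 59.2 and 69.1 CPM in heterozygous and 70.8 and 136 CPM in homozygous testis (log2 fold change 0.61, SE 0.55; edgeR adjusted p = 0.782).

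Among 15 characterised KRAB zinc finger genes numbered outside the range, 14 were tested in each comparison. EdgeR called 3 between the IPs (21.4%, against 30.1% of all genes), or 0 when fitted on all 8 libraries (3.43% of all genes). Zfp37 was at 158 and 156 CPM in heterozygous and 59.9 and 66.5 CPM in homozygous IP (log2 ratio 1.36, SE 0.19; edgeR adjusted p = 3.67e-04). Prdm9, which places the sites of meiotic recombination, was at 15.01 and 20.01 against 35.3 and 39.0 CPM (-1.05, SE 0.25; edgeR adjusted p = 0.00911). Zfp110 was at 87.0 and 117 against 157 and 163 CPM (-0.61, SE 0.21; edgeR adjusted p = 0.0489). The list had a median log2 ratio of -0.17 between the IPs, beside -0.55 for the Zfp900 to Zfp999 genes. In homozygous IP over testis edgeR called none of the 14 (3.28% of all genes), and their median log2 fold change was -0.20. At an unadjusted p under 0.05 there were 3, against 3021 of all 13334 genes. DESeq2 called 0, against 10.6% of all genes. In testis edgeR called none, with 3 lower at an unadjusted p under 0.05 (8.16% of all genes were) and 2 called lower by DESeq2 (4.44% of all genes). In heterozygous IP over testis edgeR called none, with 6 lower at an unadjusted p under 0.05 (7.98% of all genes). DESeq2 called 2 lower (2.77% of all genes).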

How the data were processed

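RNA was sequenced from whole testis and from RNF17 IPs of Rnf17 heterozygotes and homozygotes. Groups and replicate numbers came from the sample titles. Per the submitters' processing notes, the authors used STAR, DESeq and build mm9; the sources used here give no version, role or counting rule. The deposited gene tables hold whole-number read counts per gene symbol. The testis columns are repeated in the IP tables, and all 4 repeated columns were identical; 0 columns were left unmapped. Reads of 5661754 to 50575649 per library limit the precision for genes with few reads.

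The authors' deposited table of homozygous against heterozygous testis gives, per the file headers, mean normalised signal per genotype, log2 fold changes, their standard errors (a score), and raw and adjusted p-values.

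Each comparison was fitted on its own 4 libraries, and the interaction on 8, over all genes, by edgeR 4.0.16 (quasi-likelihood F test, R 4.3.3, TMM scaling, filterByExpr), adjusted by Benjamini-Hochberg and called under 0.05. The SE is the log2 fold change divided by the square root of the F statistic. CPM came from 1 TMM scaling of all 8 libraries. Alternatives were DESeq2 1.42.0, its size factors in edgeR, no low-count filter, the replicate number as a block, all 8 libraries in 1 fit, and each library left out. The fits were also run on simulated counts. Those counts had the same spread for every gene and group, unlike these libraries, so they do not vouch for the fits here.

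Named in each comparison are the called genes, the 3 largest rises and 3 largest falls without overlap whose higher group averages at least 10 reads, Zfp942, Zfp943 and Zfp944, the 5 most highly counted genes, and of each pathway list up to 3 called genes, with Trim28 and Setdb1. Zfp758, Gm4944 and 2210404O09Rik were added after their values were seen. The genes, lists, alternatives and rules were chosen with earlier results of these data known. Promoters and gene order are from RefSeq (GRCm38.p6) and transcripts from GENCODE M21, a build that differs from the authors', so no other coordinates are given. All 32 genes matched RefSeq, 29 with a promoter window.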

Additional observations from a re-analysis of the deposited data

Results flagged for a closer look

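In 5 genes both IP libraries lay below both testis libraries in heterozygotes and above both in homozygotes. The share of all genes with this pattern was not counted, so whether 5 of the 32 is unusual cannot be told. The log2 difference between the genotypes in IP over testis, tested with edgeR on all 8 libraries, was -4.32 for Zfp942, -4.23 for Zfp943 and -3.32 for Zfp944, each with an adjusted p of 0.214. It was -3.04 (SE 1.14) for Zfp937, at an edgeR adjusted p of 0.449 and on 2 to 64 reads per library. It was -1.34 (SE 0.68) for Zfp940, at an edgeR adjusted p of 0.590. No difference passed the threshold in edgeR, and DESeq2 called those of Zfp942, Zfp943 and Zfp944.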

How the results depend on the processing

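In testis, where edgeR called 0 of the 32 genes, 4 were called by DESeq2, 4 with the replicate block and 4 on all 8 libraries, and leaving out a library gave 0 to 4. Between the IPs the 7 calls became 4 in DESeq2 and 1 on all 8 libraries, and 4 to 9 with a library left out, with a median log2 ratio of -0.88 to -0.41. Over all genes these fits called 3421 of 14412 in DESeq2, 487 of 14180 on all 8 libraries, 2069 of 13514 without heterozygous IP replicate 1 (4 of the 32 genes), 3182 of 14172 without heterozygous IP replicate 2 (4 of the 32) and 5414 of 14153 without homozygous IP replicate 1 (9 of the 32). In heterozygous IP over testis the 0 calls became 7 in DESeq2 and 0 to 22 with a library left out, with a median of -1.79 to -0.74. In homozygous IP over testis the 3 calls became 1 on all 8 libraries and 0 to 8 with a library left out; its median of -0.033 ran from -0.35 to 0.024, and changed sign without homozygous testis replicate 1 (0.024). For the difference between genotypes the 0 calls became 3 in DESeq2 and 0 to 3 with a library left out. The cause was not tested, except that a library left out means fewer samples. For single named genes, all 275 alternatives kept the direction of the log2 fold change, with 210 on the same side of the threshold, 42 newly past it and 23 no longer past it.

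The replicate number as a block moved the testis count from 0 to 4 (6.58% of all genes). It changed no other count of calls among the 32 genes by over 1.5 times. It gave 7 between the IPs (33.7% of all genes) and 0 in heterozygous IP over testis (1.43%). In homozygous IP over testis it gave 3 (7.57% of all genes), and for the difference between genotypes 0 (0%). No label says what a number shares, and with 2 pairs the data cannot show a pairing: deviations of same-numbered libraries correlated across genes at 0.588 between the testis groups, 0.0410 between the IPs, 0.0606 between heterozygous testis and IP, and -0.119 between homozygous testis and IP. The crossed pairing of the last, added after seeing the data, also called 3 of the 32 genes, while it called 1787 of all 13334 genes tested.

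Genes with few reads, such as Zfp931, Zfp954 and Zfp957, were below the filter of some comparisons, and were not tested there. Without the low-count filter edgeR called 9 of the 32 genes between the IPs, 4 higher and 5 lower in heterozygotes. Over all genes the same fit called 4682 of 17878, a similar share. Zfp957 was among the 9, with 14 and 3 reads in heterozygous IP and 0 in either homozygous IP (adjusted p = 0.0263), whereas Zfp931 (0.983) and Zfp954 (0.575) were not.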

Other observations

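The symbol rule missed genes that have since been given names in the same range. Of 30 current symbols from Zfp900 to Zfp999 that the table does not hold, 17 were found under older names. Of these, 13 could be tested between the IPs, and edgeR called 7 (53.8%, against 30.1% of all genes): 1 was higher in heterozygotes and 6 were lower. Their median log2 ratio was -1.05. Fitted on all 8 libraries, edgeR called 1 of 16 (6.25%), which was lower, against 3.43% of all genes called and 0.31% called lower. Besides Gm4944 and 2210404O09Rik, the called genes were Etohi1 (now Zfp971; -2.10, SE 0.54, edgeR adjusted p = 0.0126), Gm5595 (Zfp975; -1.77, SE 0.40, edgeR adjusted p = 0.00625), Gm13247 (Zfp981; -1.76, SE 0.32, edgeR adjusted p = 0.00192) and Gm13152 (Zfp982; -1.36, SE 0.32, edgeR adjusted p = 0.00731), all lower. The called gene that was higher was 1700049G17Rik (Zfp974; 1.22, SE 0.27, edgeR adjusted p = 0.00599).

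In homozygous IP over testis 2 of 15 renamed genes were called, both higher, and these were Gm4944 and 2210404O09Rik, against 1.84% of all genes called higher. On all 8 libraries 1 of 16 was called, against 0.36% of all genes. In testis edgeR called 0 of 16, with 2 lower at an unadjusted p under 0.05 (8.16% of all genes were). DESeq2 called 1 lower there (4.44% of all genes). The median log2 fold change in testis was -0.84, close to the -0.83 of the genes under current names. Of the renamed genes, only Gm4944 (Zfp994) and 2210404O09Rik (Zfp995) were examined for sequence shared with other genes, and 596 of the shared 50-base stretches of Zfp994 were with CT030661.1, outside the chromosome 17 run.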
